A study of Homo sapiens with 4 samples.

Results

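The genes described here are 5 ligands of the epidermal growth factor receptor (EGFR), namely AREG, EREG, TGFA, HBEGF and BTC, together with FGFBP1, a secreted protein that binds fibroblast growth factors (FGFs). They are 6 of the 60658 gene identifiers in each of 4 RNA sequencing tables, found by matching identifier to symbol. The group was chosen by a measured value, the rise of FGFBP1 in HT29 cells given an siRNA against TMEM161A. On the log2(FPKM + 1) scale described below, this rise was the largest of any compared protein-coding gene with a symbol. The comparisons of siRNA with control are therefore given as descriptions, as is every comparison of FGFBP1 that uses its HT29 values.

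The cells were HT29 and LIM1215, both established lines from human colorectal cancers, and each contributed 1 library from cells treated with a negative control siRNA (NC) and 1 from cells treated with an siRNA aimed at TMEM161A (si2). TMEM161A encodes a transmembrane protein that the study examined for its bearing on tumour growth. No other agent is named in the labels, and the dose and time of the siRNA are not given in the sources used here. With 1 library in each of the 4 groups there is no error between replicates, only 1 siRNA was sequenced against its control, and no p-value is given.

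EGFR ligands are made as membrane-anchored precursors. Proteases of the ADAM family cut them at the cell surface, and the freed peptides activate EGFR and its relatives of the ERBB family on the same or neighbouring cells. In the intestine they support epithelial growth and repair, and AREG and EREG levels are studied in colorectal cancer in relation to treatment with antibodies against EGFR. FGFBP1 is not an EGFR ligand: it acts as a carrier that releases FGFs from the extracellular matrix, where they are stored bound to heparan sulfate. The ERK pathway lies downstream of both receptor families.

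The values are FPKM, fragments scaled to the length of the gene and to the mapped fragments of the library, so levels can be compared between genes. TMEM161A, the target, had an FPKM of 42.6 with NC and 4.64 with si2 in HT29, and of 39.1 and 7.61 in LIM1215, so its level matched the labels of all 4 libraries. Of 8 colon epithelial markers, 6 reached an FPKM of 1 in each HT29 library and all 8 in each LIM1215 library. KRT20 (0.306 and 0.815) and VIL1 (0.0397 and 0) were the markers near 0 in HT29. The defining markers of fibroblasts, immune cells and endothelium were mostly near 0, with COL1A1 (4.83 to 17.6) and CD68 (6.22 to 72.2) as the only ones at an FPKM of 1 or more.

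AREG (ENSG00000109321), EREG (ENSG00000124882) and BTC (ENSG00000174808) lie near each other on chromosome 4, in GRCh38 coordinates of GENCODE release 44. AREG spans chr4:74445136-74455005 and EREG chr4:74365145-74388749, both on the plus strand and 56.4 kb apart. BTC spans chr4:74744759-74794523 on the minus strand, 289.8 kb beyond AREG. FGFBP1 (ENSG00000137440) is on the other arm of the same chromosome, at chr4:15935577-15938740 on the minus strand. HBEGF (ENSG00000113070) lies at chr5:140332843-140346603 and TGFA (ENSG00000163235) at chr2:70447284-70554193, both on the minus strand. Apart from TGFA, which contains the noncoding gene TGFA-IT1 at a mean FPKM below 1, no member overlapped another annotated gene.

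The promoter windows of 4 members are shown because AREG and EREG, which are neighbours, were both lower with si2 in each line, while HBEGF and FGFBP1 were both higher. BTC was also lower in each line, though within counting error in HT29, and its window is not shown. Each window runs from 250 bases before to 50 bases after the annotated start, 5′ to 3′ on the gene's own strand, from RefSeq on GRCh38.p14. Capitals mark every match, on either strand, to 7 short motifs: the cAMP response element (TGACGTCA), the AP-1 element (TGACTCA), the TATA box (TATAAA), the GC box (GGGCGG), the CCAAT box (CCAAT), the E-box (CACGTG) and a TEAD element (GGAATG).
AREG, chr4:74444886-74445185, plus strand: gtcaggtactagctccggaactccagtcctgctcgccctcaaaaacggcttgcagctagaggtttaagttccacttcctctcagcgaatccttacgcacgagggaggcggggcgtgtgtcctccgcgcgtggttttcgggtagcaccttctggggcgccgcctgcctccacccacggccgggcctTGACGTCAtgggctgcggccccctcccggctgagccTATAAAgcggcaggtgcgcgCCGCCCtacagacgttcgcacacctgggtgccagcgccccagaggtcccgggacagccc
EREG, chr4:74364895-74365194, plus strand: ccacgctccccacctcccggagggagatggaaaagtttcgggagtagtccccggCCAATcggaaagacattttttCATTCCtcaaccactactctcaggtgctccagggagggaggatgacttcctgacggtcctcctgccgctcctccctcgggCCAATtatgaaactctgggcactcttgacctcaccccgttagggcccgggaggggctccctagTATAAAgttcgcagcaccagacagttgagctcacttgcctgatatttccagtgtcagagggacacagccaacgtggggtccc
HBEGF, chr5:140346554-140346853, minus strand: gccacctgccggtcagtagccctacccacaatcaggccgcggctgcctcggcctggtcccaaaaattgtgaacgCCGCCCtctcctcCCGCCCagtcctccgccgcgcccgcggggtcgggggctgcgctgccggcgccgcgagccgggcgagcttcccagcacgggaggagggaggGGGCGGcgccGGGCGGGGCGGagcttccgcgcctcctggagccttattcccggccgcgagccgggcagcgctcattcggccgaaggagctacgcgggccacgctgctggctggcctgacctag
FGFBP1, chr4:15938691-15938990, minus strand: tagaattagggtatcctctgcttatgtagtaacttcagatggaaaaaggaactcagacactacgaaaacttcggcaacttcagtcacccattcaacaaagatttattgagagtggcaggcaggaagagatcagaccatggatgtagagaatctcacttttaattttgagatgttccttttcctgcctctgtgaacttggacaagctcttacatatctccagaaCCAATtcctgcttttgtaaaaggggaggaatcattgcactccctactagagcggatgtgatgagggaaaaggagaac

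The 4 windows differed in which letters they held. AREG had a full cAMP response element at position −65 from the start, a match found in 1.85% of the 35116 windows in the table. AREG and EREG both had a TATA box, at −29 and −32, against 11.5% of all windows, and AREG also matched the GC box at −9. HBEGF had 5 GC boxes and neither of those motifs, while 45.0% of windows held at least 1 GC box. FGFBP1 matched only the CCAAT box, at −27, which 34.6% of windows contain. EREG matched the CCAAT box at −196 and −95 and the TEAD letters at −175, the latter in 14.0% of windows. AP-1 letters (4.95% of windows) and E-box letters (7.26%) were in none of the 4 windows. The BTC window matched only the GC box, at base 23 after the start, and held neither the exact letters TATAAA nor a cAMP response element. Only exact letters were searched, so variant forms of a motif, such as other TATA-like letters in the BTC window, were not counted. These matches describe the letters of the windows and show no binding.

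FGFBP1 was higher with si2 in both lines, and by far more in HT29 than any of the ligands. Its FPKM was 6.49 with NC and 32.6 with si2 in HT29, and 24.0 with NC and 36.7 with si2 in LIM1215. The HT29 control library stood far below the other 3, and both si2 libraries were above both NC libraries. In HT29 the si2 level was 5.03 times the NC level, with a 95% counting interval of 4.22 to 5.98 from an estimated 807 and 159 fragments. In LIM1215 it was 1.53 times the NC level (1.37 to 1.71), from 853 and 498 fragments. These intervals cover counting error only and say nothing of the variation between cultures, which was not measured. In RNA from whole cultures, fewer cells expressing a gene and less RNA per cell cannot be told apart.

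On the scale of log2(FPKM + 1), which is used for all log2 ratios here and understates changes of low genes, FGFBP1 rose by 2.17 in HT29. Its log2 ratio in LIM1215 was 0.59, a difference between the lines of −1.57 that could not be tested with 1 library per group. Among 12295 protein-coding genes with a mean FPKM of at least 1 over the 4 libraries, FGFBP1 had the 3rd largest rise in HT29 and the 600th in LIM1215. The genes ranked above it in HT29 have no symbol and were listed at 0 in the control. Those just after it were DGAT2 (2.06), PTPMT1 (2.06) and CPA4 (1.80). This order depends on the scale. DGAT2 had an FPKM of 1.03 with NC and 7.46 with si2 in HT29, a larger ratio than that of FGFBP1 when no pseudocount is added.

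Among the ligands, AREG, an EGFR ligand induced in many epithelial tumours, was lower with si2 in both lines. Its FPKM was 149 with NC and 103 with si2 in HT29, and 106 and 56.3 in LIM1215. Both si2 libraries were below both NC libraries, with little distance between the LIM1215 control and the HT29 si2 library (ratio 1.03, counting interval 0.969 to 1.09). The si2 level was 69.0% of control in HT29 (65.3% to 72.8%) and 53.2% in LIM1215 (49.5% to 57.3%). The log2 ratios of −0.53 and −0.90 both fell short of a 2-fold difference.

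EREG, a close relative of AREG that activates both EGFR and ERBB4, was lower by a similar amount in each line. Its FPKM was 196 with NC and 142 with si2 in HT29, and 53.8 and 36.6 in LIM1215. Within each line the si2 library was the lower one, but both HT29 libraries were above both LIM1215 libraries. The si2 level was 72.1% of control in HT29 (70.6% to 73.8%) and 68.2% in LIM1215 (65.1% to 71.3%), log2 ratios of −0.47 and −0.54.

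BTC, which binds EGFR and ERBB4, had the lowest level of the members in every library. Its FPKM was 1.52 with NC and 1.2 with si2 in HT29, and 3.67 and 2.46 in LIM1215. In HT29 the estimated 79 and 63 fragments could not show a difference, as the si2 level was 78.6% of control with an interval of 55.7% to 111%. In LIM1215 it was 67.0% of control (52.4% to 85.1%).

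HBEGF, a heparin-binding ligand of EGFR and ERBB4, was higher with si2 in both lines. Its FPKM was 5.77 with NC and 8.48 with si2 in HT29, and 21.8 and 33.7 in LIM1215. Both LIM1215 libraries were above both HT29 libraries, and within each line the si2 library was the higher one. The si2 level was 1.47 times control in HT29 (1.25 to 1.72) and 1.55 times control in LIM1215 (1.42 to 1.69), log2 ratios of 0.49 and 0.61.

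TGFA, which binds EGFR alone, had the smallest log2 ratios, in opposite directions. Its FPKM was 24.7 with NC and 27.0 with si2 in HT29, and 19.0 and 15.9 in LIM1215. All 4 values lay close together, with both HT29 libraries above both LIM1215 libraries. The si2 level was 110% of control in HT29 (103% to 116%) and 83.8% in LIM1215 (77.6% to 90.6%). The HT29 interval reached down to 98.0% when the mean length of coding transcripts replaced that of the canonical one, since the 9 annotated TGFA transcripts differ in length.

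**Figure D1:**
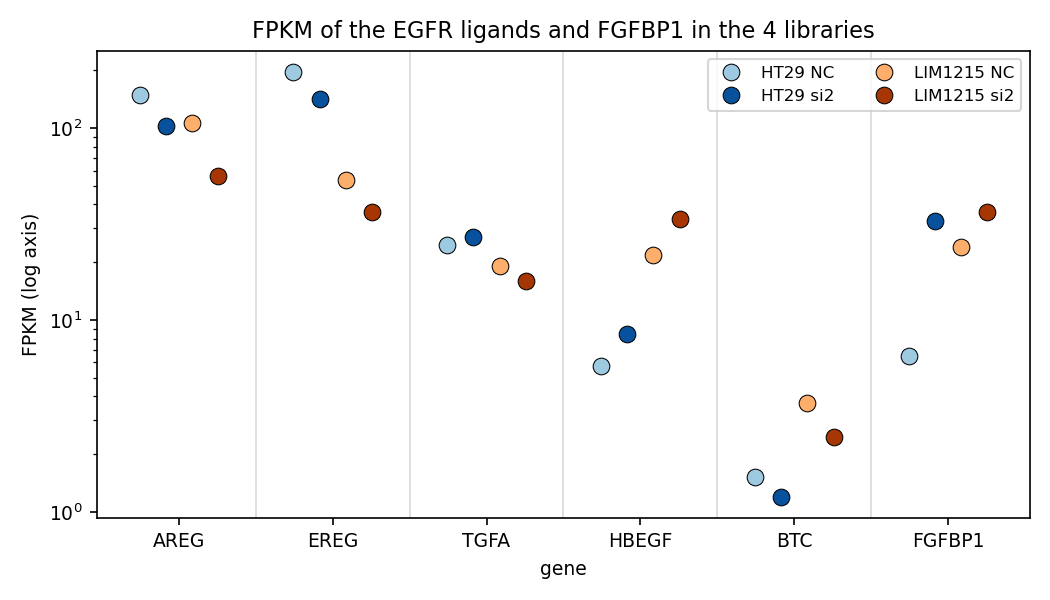
FPKM (log axis) of the 6 genes, 1 point for each of the 4 libraries. FGFBP1 in the HT29 control (6.49) stands below its other 3 values (24.0 to 36.7), and EREG is the gene with the highest single value (196).

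The 6 genes were then counted against all genes. In HT29, 1 of the 6 (FGFBP1) differed by at least 2-fold between si2 and NC, or 16.7%, where 3.80% of the 14803 genes compared did so. That 1 gene is the one by which the group was chosen, and nothing is read from the count. In LIM1215, 0 of the 6 passed 2-fold, against 3.46% of all genes. At any size, AREG, EREG and BTC were lower in both lines, as were 28.0% of all genes, and HBEGF and FGFBP1 were higher in both, as were 36.0%. The groups of 2 NC and 2 si2 libraries did not overlap for 2 of the 6 genes (FGFBP1 above, AREG below), and 26.1% of all genes showed no overlap either, so this share is near the background.

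The position of each gene among the 12295 protein-coding genes shows the size of these ratios. The log2 ratio of AREG was at percentile 7.34 in HT29 and 1.35 in LIM1215, and that of EREG at 9.26 and 5.87. The HBEGF ratio was at 89.95 in HT29 and 95.46 in LIM1215. AREG in LIM1215 was thus the ligand ratio farthest from the middle of all genes, with the 167th largest fall by rank.

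**Figure D2:**
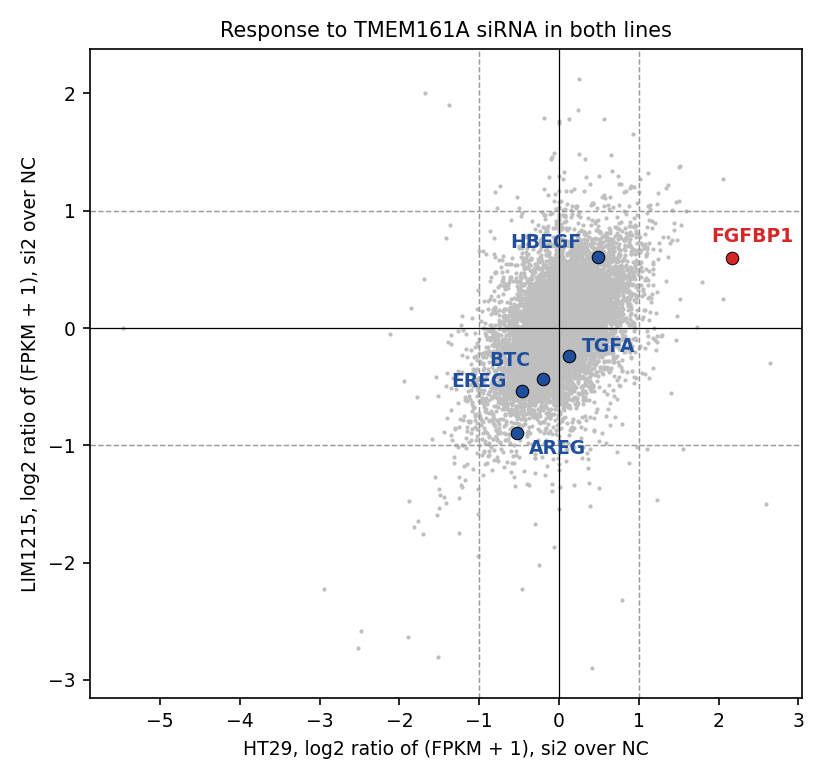
Log2 ratio of (FPKM + 1), si2 over NC, in HT29 (x axis) and LIM1215 (y axis) for the 12295 protein-coding genes (grey) and the 6 genes (coloured); dashed lines mark a 2-fold difference. FGFBP1 (2.17 and 0.59) lies to the right of all but 2 genes, while the ligands lie within the 2-fold lines in both lines.

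The control libraries were compared to describe the lines before knockdown. EREG was lower and HBEGF and FGFBP1 higher in LIM1215 than in HT29, each by more than 2-fold. EREG in the LIM1215 control was 27.4% of its level in the HT29 control (26.5% to 28.3%), a log2 ratio of −1.85. HBEGF was 3.77 times as high (3.28 to 4.34) and FGFBP1 3.69 times (3.07 to 4.43), log2 ratios of 1.75 and 1.74. AREG at 71.0% (67.1% to 75.1%) and TGFA at 77.0% (71.8% to 82.5%) were lower by less, and BTC was 2.41 times as high (1.84 to 3.22). The pseudocount left BTC at a log2 ratio of 0.89, short of the threshold.

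Thus 3 of the 6 genes differed by 2-fold between the controls, beside 19.4% of all genes. FGFBP1 is 1 of the 3, and its HT29 control value is part of the ratio that chose the group, so nothing is read from this count. Over all genes, 1773 were higher and 1099 lower in the LIM1215 control, but 1527 and 1516 once each library was set to the same total, which moved the median of all genes by −0.16. Upper quartile scaling moved it by −0.11. No member changed direction under either scaling.

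The lines were also compared in the si2 libraries. EREG was again lower in LIM1215, at 25.9% of HT29 (24.9% to 26.9%), and HBEGF again higher, at 3.98 times (3.55 to 4.45). AREG was at 54.8% (51.1% to 58.9%), TGFA at 58.8% (54.9% to 63.1%) and BTC at 2.06 times (1.51 to 2.84). FGFBP1 was at 1.12 times (1.02 to 1.24) beside 3.69 times in the controls, which restates its unequal ratios of si2 to NC in the lines. Its log2 ratio of 0.16 was at percentile 59.20 of protein-coding genes. With si2, 2 of the 6 genes passed 2-fold on the log2(FPKM + 1) scale (33.3%, against 21.2% of all genes). The pseudocount left BTC at a log2 ratio of 0.66, short of the threshold. Neither LIM1215 library overlapped the HT29 libraries for EREG, TGFA, HBEGF and BTC, 4 of 6 genes, close to the 63.8% of all genes without overlap.

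**Figure D3:**
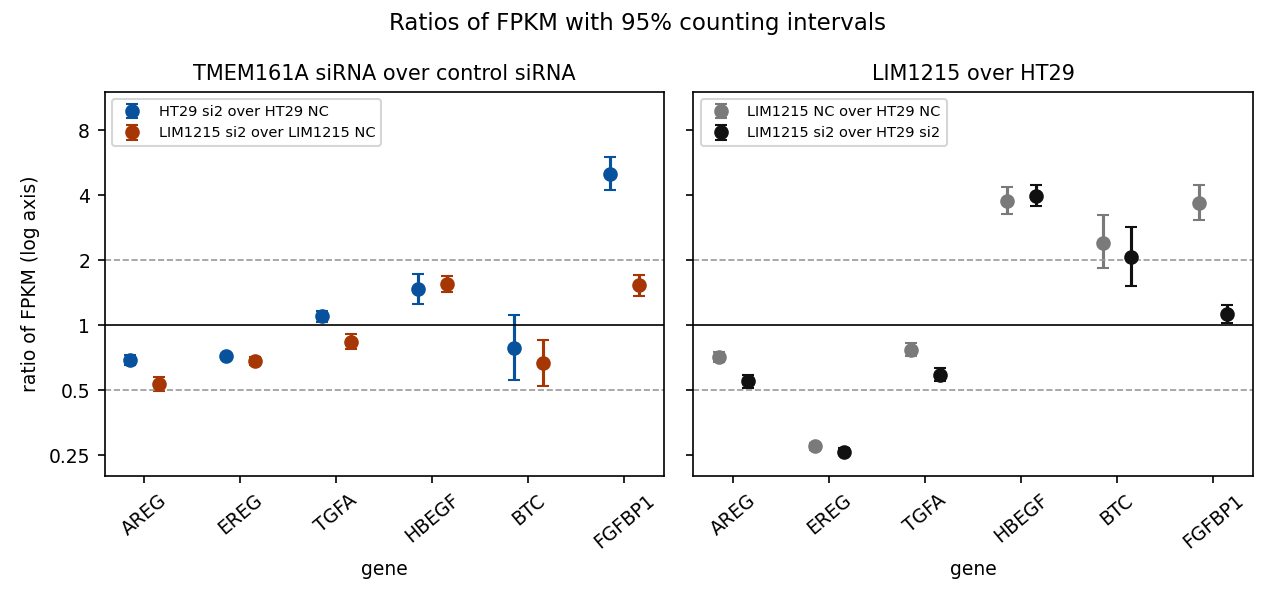
Ratio of FPKM (log axis, no pseudocount) for the 6 genes, si2 over NC in each line (left) and LIM1215 over HT29 with each siRNA (right). Bars are 95% counting intervals from estimated fragments, and dashed lines mark 2-fold; FGFBP1 is at 5.03 in HT29 on the left, and at 3.69 (controls) and 1.12 (si2 libraries) on the right.

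The mix of ligand transcripts also differed between the libraries. Summed over the 5 ligands, FPKM was 377.4 with NC and 281.2 with si2 in HT29, and 204.0 and 145.1 in LIM1215. The sum was highest in the HT29 control and lowest in the LIM1215 si2 library, and was lower with si2 in each line, at 74.5% and 71.1% of control. AREG and EREG together made up 91.5% of it in the HT29 control, 86.9% with si2, and 78.2% and 64.1% in LIM1215. HBEGF held 1.53% and 3.02% in HT29 and 10.7% and 23.2% in LIM1215. The share of HBEGF was thus larger in the si2 library of each line, and largest in LIM1215.

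The leading ligand was EREG in HT29 and AREG in LIM1215. EREG was above AREG in both HT29 libraries, with an AREG to EREG ratio of 0.759 with NC and 0.725 with si2, and below it in both LIM1215 libraries, with ratios of 1.97 and 1.54. FGFBP1 stood at 4.36% of the AREG level in HT29 with NC and 31.8% with si2, and in LIM1215 at 22.6% and 65.1%. Among protein-coding genes AREG was at percentile 94.9 of FPKM in HT29 with NC and 81.0 in LIM1215 with si2, its extremes. The percentile of FGFBP1 ran from 27.1 in HT29 with NC to 71.4 in LIM1215 with si2.

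**Figure D4:**
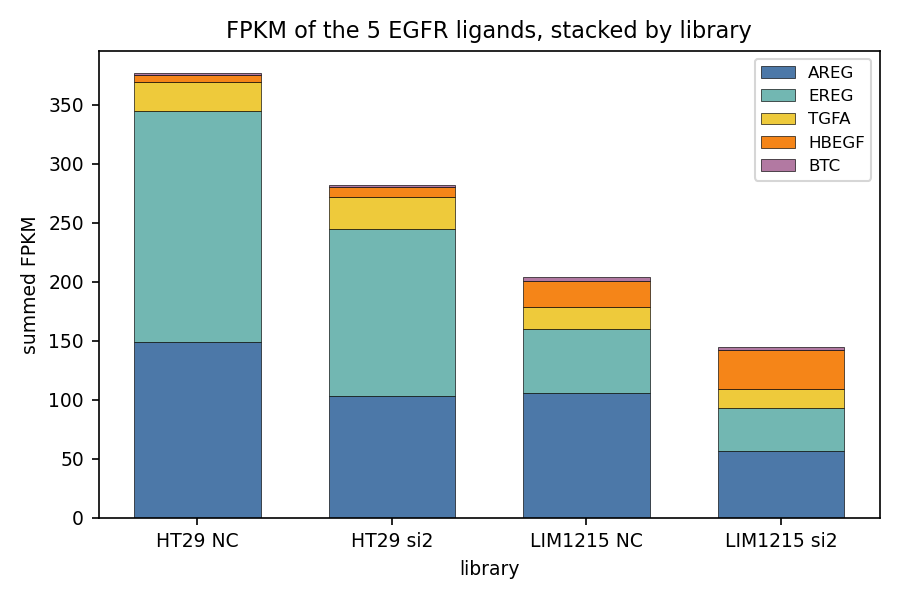
FPKM of AREG, EREG, TGFA, HBEGF and BTC stacked for each of the 4 libraries (linear axis from 0). The total runs from 377.4 in the HT29 control to 145.1 in the LIM1215 si2 library, and the HBEGF part is largest in LIM1215 with si2 (23.2%).

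The receptors of these ligands were expressed in both lines, except ERBB4, listed at 0 in all 4 libraries. EGFR had an FPKM of 16.5 with NC and 27.5 with si2 in HT29, and of 20.8 and 23.9 in LIM1215, or 166% (159% to 174%) and 115% (110% to 120%) of control. ERBB3, which pairs with other ERBB receptors, was at 16.9 and 18.1 in HT29 and at 98.9 and 115 in LIM1215, and stood far higher in LIM1215 with either siRNA. ERBB2, which has no known ligand of its own, was at 28.2 and 27.1 in HT29 and at 50.5 and 72.3 in LIM1215. No ERBB receptor passed 2-fold between si2 and NC.

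The sheddases ADAM10 and ADAM17 varied little with si2. ADAM17, which releases AREG, EREG, HBEGF and TGFA, was at 22.7 and 21.3 in HT29 and at 15.0 and 13.3 in LIM1215. ADAM10, which releases BTC and EGF, was at 100 and 97.9 in HT29 and at 138 and 128 in LIM1215. EGF itself was low, at 0.898 and 0.834 in HT29 and at 0.378 and 1.05 in LIM1215. The receptors for FGFs were FGFR1 (56.6 and 56.1 in HT29, 37.2 and 38.2 in LIM1215), FGFR4 (28.3 and 27.8, 36.0 and 42.9), FGFR3 (8.23 and 7.48, 15.4 and 18.6) and FGFR2 (6.52 and 5.42, 5.04 and 3.97). None of them differed by 2-fold between si2 and NC.

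The rest of both pathways was read from 7 lists of 77 genes, of which 61 had a mean FPKM of at least 1. In HT29 1 of the 61 passed 2-fold with si2, upward, where 3.80% of all genes passed in either direction, and in LIM1215 0 did, against 3.46%. The gene was FOSL1, an AP-1 transcription factor subunit induced by ERK signalling, with an FPKM of 100 and 216 in HT29 (log2 ratio 1.10) and 59.3 and 91.0 in LIM1215 (0.61). It belongs to the list of ERK output genes, with a list median of 0.30 for HT29 and 0.28 for LIM1215, beside 0.04 and 0.02 over all genes. In each line 14 of its 19 genes were above 0, where 53.9% of all genes were in HT29 and 53.1% in LIM1215.

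The medians of the other lists lay nearer to 0 in HT29. They were 0.09 and 0.21 for the ERBB receptors (3 genes compared), 0.10 and 0.08 for ligand shedding and trafficking (12), and 0.06 and −0.12 for EGFR adaptors and negative regulators (12), in HT29 and LIM1215 respectively. FGF receptors and matrix partners (9) had 0.05 and 0.25, and FGF ligands and FGF-binding proteins (5) had 0.09 and −0.47. Of 6 further ERBB ligands only NRG1 was compared, with log2 ratios of −0.04 and 0.89. Without the pseudocount, NRG1 in LIM1215 was at 274% of control (234% to 323%), from an FPKM of 0.956 to 2.62. The sheddase ADAM8 was at 243% there (180% to 327%), from 1.15 to 2.79, and the pseudocount left both short of the threshold. Between the controls, 10 of the 61 genes were at least 2-fold higher and 10 lower in LIM1215, beside the 19.4% of all genes that passed in either direction. The ERK output genes held 2 of the higher ones (SPRY1 and SPRY2) and 5 of the lower ones (DUSP5, ETV1, ETV5, PHLDA1 and IER3).

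**Figure D5:**
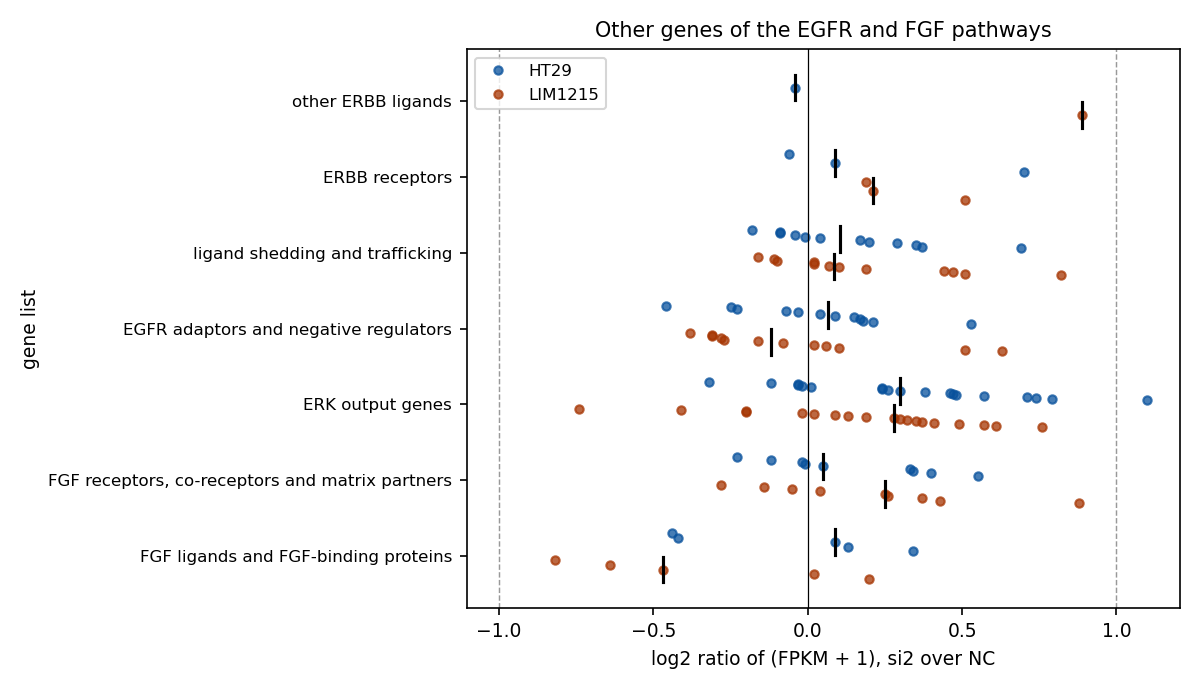
Log2 ratio of (FPKM + 1), si2 over NC, for the 61 compared genes of 7 pathway lists (y axis) in HT29 (blue) and LIM1215 (brown); vertical bars are list medians and dashed lines mark 2-fold. Only FOSL1 among the ERK output genes in HT29 (1.10) lies beyond a dashed line.

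Neighbouring genes were examined because 4 of the 6 genes share a chromosome. Within 200 kb of AREG, EREG or BTC lie 3 other protein-coding genes, 2 of them compared, and neither passed 2-fold with si2 in either line. PARM1, beside BTC, had a log2 ratio of −0.35 with si2 in HT29, against 0.59 in the other line, and was higher in the LIM1215 control by 3.14. Within 200 kb of FGFBP1 lie 4 protein-coding genes, of which PROM1 alone was compared. Its FPKM was 24.9 with either siRNA in HT29, and 4.96 and 2.41 in LIM1215. PROM1 was thus lower in LIM1215, where FGFBP1 was higher in the controls. FGFBP2, the paralog next to FGFBP1, was at 0.576 and 0.0960 in HT29 and listed at 0 in LIM1215.

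The genes whose profile over the 4 libraries was most like each member's were found by Euclidean distance of log2(FPKM + 1), each gene centred on its own mean. For FGFBP1 they were KLF11 (0.58), a gene without a symbol (0.61), BTG2 (0.63), CASD1 (0.65) and TRUB2 (0.75). BTG2 had an FPKM of 25.3 and 71.5 in HT29 and 50.7 and 108 in LIM1215. The nearest genes of the ligands were closer, at 0.07 for CA2 with AREG, 0.17 for RGL3 with EREG, 0.03 for ZNF148 with TGFA, 0.04 for C1orf210 with HBEGF and 0.08 for MAPKAPK2 with BTC. Next came PSIP1 and PIMREG for AREG, KLRC3 and MAP3K12 for EREG, MKI67 and KREMEN2 for TGFA, B3GNT3 and GAB1 for HBEGF, and ZNF566 and SNX30 for BTC. Between members the distances ran from 0.67 for AREG with TGFA to 3.85 for EREG with HBEGF. The nearest genes were picked as the closest of all protein-coding genes compared, so their smaller distances are no measure of how unlike the members are. AREG and EREG, the chromosomal neighbours, were 1.24 apart, and FGFBP1 was nearest to HBEGF at 1.47. With 4 libraries these distances describe the profiles and carry no test.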

How the data were processed

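Per the submitters' processing notes, the tools were HISAT2 2.1.0, SAMtools 1.20, Cufflinks 2.2.1 and Cuffdiff on GRCh38, with no role stated. The deposited values are FPKM, 1 table of 60658 Ensembl identifiers per library. The gene annotation, filters and use of strand in counting are not given in the sources used here. Per the labels' protocols, libraries were stranded and made from mRNA. Because Cufflinks estimates FPKM, values need not be whole fragments, and a gene listed at 0 can be a failed estimate. Because FPKM is relative to the whole library, a gain in a few strongly expressed genes makes every other value smaller.

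GENCODE release 44 gave symbols for 56550 identifiers. Log2 ratios used a pseudocount of 1 and the 14803 genes with a mean FPKM of at least 1, all 6 members among them. A 2-fold difference is a log2 ratio of 1 or more, or of −1 or less. Fragments were estimated from the steps of low FPKM values in 16863 single-transcript genes, those of at least 500 bases. From 78.8% to 81.0% of low values lay within 0.03 of a whole number, and an FPKM of 1 stood for 18.12 to 21.56 fragments per kilobase. Ratios have exact 95% Clopper-Pearson intervals for counting error only. Steps were tested on simulated data.

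Members and lists were chosen with earlier results of these data known. List genes are named where they are an ERBB or FGF receptor, ADAM10, ADAM17, EGF, or passed 2-fold between si2 and NC. Neighbours are named where they passed 2-fold in any comparison, and the genes of nearest profile and those ranked just after FGFBP1 by their rank. NRG1, ADAM8, FGFBP2, the 7 ERK output genes that differed between controls, COL1A1, CD68, KRT20 and VIL1 were picked after being seen. So were the FPKM values of BTG2 and DGAT2. Alternatives were other pseudocounts, scalings, filters, a 1.5-fold threshold, coding genes alone and another transcript length. Python 3.11.15, pandas 2.3.3 and SciPy 1.17.1 were used.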

Additional observations from a re-analysis of the deposited data

Results flagged for a closer look

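The 6 members, the list genes named in every case and those past 2-fold with si2 made 18 genes looked at. For 6 of the 18, si2 and NC were ordered one way in the HT29 pair of libraries and the opposite way in the LIM1215 pair. With 1 library per group none of these differences was tested, and 33.8% of all genes compared had opposite directions. The log2 ratio of TGFA was 0.13 in HT29 against −0.24 in LIM1215 (difference −0.37). EGF had −0.05 and 0.57 (difference 0.62), at FPKM values near 1 or below. ERBB2 had −0.06 and 0.51, a difference of 0.56. FGFR1 had −0.01 and 0.04 (0.05), FGFR3 −0.12 and 0.26 (0.38) and FGFR4 −0.02 and 0.25 (0.27). The HT29 counting intervals of EGF (71.1% to 122% of control), ERBB2 (91.0% to 102%), FGFR1 (95.7% to 102%), FGFR3 (81.6% to 101%) and FGFR4 (91.9% to 105%) included no change.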

How the results depend on the processing

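Each of the 24 log2 ratios of the 6 genes (4 comparisons) was recomputed with 5 alternatives, and none of the 120 values changed sign. Another pseudocount cannot change a sign, so only the alternatives that rescale or centre the values could have done so. Of the 120 values, 97 stayed within the counting interval. With a pseudocount of 5, FGFBP1 had 1.71 in HT29 and 1.33 between the controls. With the 1.5-fold threshold, members higher and lower numbered 2 and 1 in LIM1215, and 2 and 3 between the si2 libraries. Counts of all genes, higher then lower, moved more. A pseudocount of 0.1 gave 570 and 558 genes in HT29 and, in LIM1215, 476 and 508. A pseudocount of 5 gave 87 and 94, 68 and 88 in these lines, 947 and 353 between the controls, and 1059 and 491 between the si2 libraries. At a mean FPKM of at least 5 they were 128 and 144, 89 and 113, 1107 and 563, and 1170 and 681. With the 1.5-fold threshold they were 1165 and 1023, 982 and 915, 3220 and 2409, and 3219 and 2558. Protein-coding genes alone gave 118 and 155 in HT29 and 93 and 109 in LIM1215, and no filter gave 395 higher in LIM1215. No analysis paired by replicate was made, because each group had 1 library and the labels give no replicate numbers. A model with cell line as a block, which would have 1 residual degree of freedom, was not fitted, as the comparison of si2 with NC chose the group. Leaving out a library removes the comparisons that use it. BTC in HT29 was limited by depth.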
